A study of Mus musculus with 6 samples.

Results

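The RUNX genes, their shared partner gene Cbfb and the ETO corepressor genes were examined in mouse leukemias driven by MLL-ENL, the fusion of a histone methyltransferase with a transcription elongation factor. Members were 7 genes, namely Runx1, Runx2, Runx3, Cbfb, Cbfa2t2, Cbfa2t3 and Runx1t1, and every probe set that the array annotation pairs with 1 of these symbols was taken singly. Such probe sets numbered 22 of the 45037 that were tested, and they covered 6 of the 7 genes. The level of Runx2 was not analysed here. Bone marrow with an excised or an intact Runx1 gene had received MLL-ENL and been transplanted into congenic mice, and leukemic cells were taken when the recipients were moribund. The design had 3 Runx1-KO arrays and 3 Control arrays, each with a different leukemia, all of the C57BL/6 strain and all carrying MLL-ENL. The question was how loss of Runx1 alters this leukemia. The sources used here do not give how Runx1 was excised, which part of the gene was removed, or how far host cells remained in the samples.

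RUNX proteins bind DNA through the Runt domain, and CBFB, which does not touch DNA itself, strengthens that binding and protects the RUNX subunit from degradation. RUNX1 is needed to form definitive blood stem cells and later for platelet-forming and lymphoid lineages, RUNX2 for bone, and RUNX3 for cytotoxic T and natural killer cells. The ETO proteins CBFA2T2, CBFA2T3 and RUNX1T1 do not recognise a DNA sequence on their own but carry NCOR and histone deacetylases to transcription factors. RUNX1T1 is known as the ETO part of the RUNX1-RUNX1T1 fusion of human leukemia.

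Values are linear probe set intensities, and differences are on the log2 scale, Runx1-KO minus Control, from limma with Benjamini-Hochberg adjustment over all 45037 probe sets. A probe set was taken as above background on an array when it exceeded the brightest of 27 spike-in probe sets without target there, a limit of 14.1 to 22.5. The leukocyte phosphatase gene Ptprc was bright on every array, at 2341 to 2704 in the Runx1-KO-labelled arrays and 2259.8 to 2687 in Control. So was Hoxa9, a target of MLL fusions, at 3114 to 3282 in the Runx1-KO-labelled arrays and 2790.5 to 2971 in Control. These were 2 of 10 leukemia and myeloid progenitor markers, of which 8 differences were above 0, 2 below it and 0 called. Cd34 of that list was lower without overlap, at 46.1, 67.0 and 57.5 in the Runx1-KO-labelled arrays, against 69.4, 245 and 189 in Control (-1.39 ± 0.49, limma adjusted p = 0.380). The Runx1-KO-labelled arrays held Xist at 1624 to 1895, against 25.3 to 331 in Control, and the Y-linked Eif2s3y at 3.98 to 6.31, against 638 to 707 in Control, so sex and genotype cannot be told apart. Control 1 held erythroid markers at a summed intensity of 4831, against 74.8 to 220.0 in the Runx1-KO-labelled arrays and 101 and 122 in Control 3 and Control 2. In Runx1-KO 1 the 3' to 5' ratio of Gapdh, a measure of RNA degradation, was 7.10, against 2.67 to 3.02 elsewhere, whereas that of actin was 1.11, against 1.03 to 1.10. Mature neutrophil markers summed to 16578 to 19169.8 in the Runx1-KO-labelled arrays and 8626 to 13283 in Control, and 8 of 11 were higher without overlap, as were 9.17% of all 18193 genes by their brightest probe set. Monocyte and macrophage markers summed to 2792 to 2985 in the Runx1-KO-labelled arrays and 4892 to 6390.5 in Control, and 7 of 10 were lower without overlap, as were 11.7% of all genes. Megakaryocyte markers summed to 573 to 850.1 in the Runx1-KO-labelled arrays and 227 to 369 in Control, and 3 of 8 were higher without overlap, where 9.17% of all genes were. The part of these differences in the results below was not tested, and in such bulk samples fewer cells of a type and less RNA per cell cannot be told apart.

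Runx1 signal was present in every Runx1-KO-labelled array and was higher there than in Control on all 6 of its probe sets, although 0 passed the adjusted threshold. Of the 22 member probe sets, 0 were called at an adjusted p of 0.05 by limma, where 0.0688% of all probe sets were, and 5 had an unadjusted p under 0.05, where 11.3% of all probe sets did. All 5 were Runx1 probe sets with higher values, a direction that 5.23% of all probe sets showed at that threshold. The groups did not overlap in 6 member probe sets, the same 5 and that of Cbfb, as in 19.2% of all probe sets. In the same 5 the lowest Runx1-KO-labelled array exceeded the highest Control array, as it did in 8.62% of all probe sets and in 9.17% of those above background on all 6 arrays. The probe sets of a gene measure the same RNA in the same samples and are not independent.

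The brightest Runx1 probe set, 1422864_at, stood at 1128, 1573 and 1629 in the Runx1-KO-labelled arrays, against 680.3, 1021 and 850.0 in Control. The groups did not overlap, and Control 1 was lowest of the 6. The log2 difference was 0.76 ± 0.26 (SE, n = 3 per group), 1.70-fold up, with a 95% interval of 0.13 to 1.40 and a limma adjusted p of 0.375. An exact two-sided permutation test gave p = 0.1, the smallest that 3 arrays against 3 allow.

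The second brightest, 1422865_at, stood at 848, 1126 and 1223 in the Runx1-KO-labelled arrays, against 448, 705 and 564 in Control, a difference of 0.90 ± 0.27. Probe set 1440878_at stood at 206, 246 and 313 in the Runx1-KO-labelled arrays, against 121, 163 and 87.9 in Control, a difference of 1.06 ± 0.31. Probe set 1427650_a_at stood at 142, 244 and 225 in the Runx1-KO-labelled arrays, against 82.7, 95.3 and 115 in Control, a difference of 1.03 ± 0.29. In these 3 probe sets the groups did not overlap, and their adjusted p values lay between 0.308 and 0.325. Probe set 1452530_a_at was the one Runx1 probe set in which the groups overlapped, because Runx1-KO 1 lay below 2 Control arrays. It stood at 83.8, 191 and 146 in the Runx1-KO-labelled arrays, against 60.1, 91.1 and 87.2 in Control, a difference of 0.76 ± 0.36 with an adjusted p of 0.487. Without Runx1-KO 2 it was 0.50, and without Runx1-KO 1 it was 1.09.

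The widest separation was on 1452531_at, which stood at 230.3, 169 and 148 in the Runx1-KO-labelled arrays, against 37.0, 68.5 and 70.6 in Control. Here Runx1-KO 1 was the highest array and Control 1 the lowest, whereas Runx1-KO 1 was the lowest of its group on the other 5 probe sets. The log2 difference was 1.67 ± 0.34, or 3.18-fold higher, with an interval of 0.86 to 2.48 and a limma adjusted p of 0.228. It was 1.18 without Runx1-KO 1 and Control 1 together (adjusted p = 0.374). No source used here says whether any of the 6 probe sets lies in the excised part of Runx1. Signal from outside it does not test the genotype, so these values did not settle the labels.

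**Figure D1:**
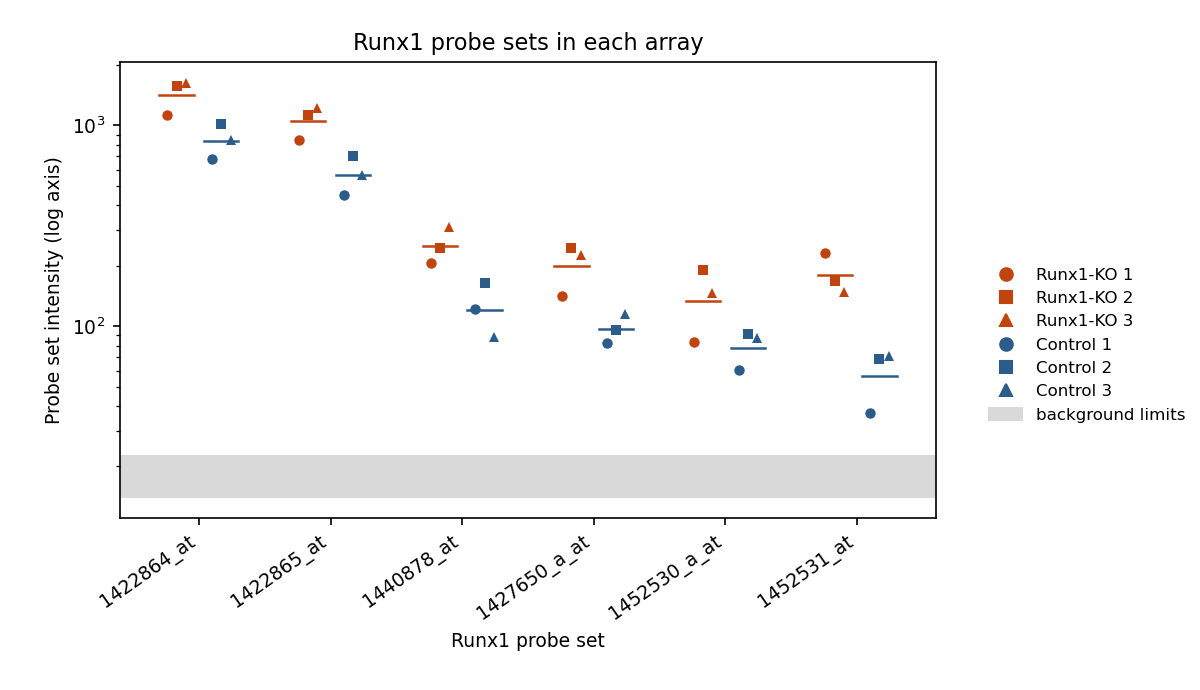
Intensity of the 6 Runx1 probe sets (log axis) in the 3 Runx1-KO-labelled arrays and the 3 Control arrays, with horizontal lines at the geometric means and a grey band for the background limits of 14.1 to 22.5. In 5 probe sets all Runx1-KO-labelled arrays lie above all Control arrays, and 1452530_a_at overlaps.

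The distal promoters of the RUNX genes carry the family's own binding motif, shown here because Runx1 is both the targeted gene and a gene with such sites. In RefSeq promoter windows of build GRCm38.p6, from 250 bases before to 50 bases after each annotated start, the motif TGTGGT, or ACCACA on the other strand, was searched with overlaps allowed. Other forms of the site, such as TGCGGT, were not searched, so all motif counts here are of this form alone. Windows were found for 6 member genes, 9 windows in all, and 3 of the 9 held the motif, against 16.8% of all 32851 windows. In each of the 3 the motif occurred as a head-to-tail pair with 2 bases between the copies. The Runx2 window also held a copy outside the pair, 80 bases before the annotated start. The windows around the pair are printed 5' to 3' on the gene's strand, with both copies in capitals.
Runx1 distal promoter, chr16:92826025-92826054, minus strand: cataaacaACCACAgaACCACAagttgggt
Runx2 distal promoter, chr17:44814583-44814612, minus strand: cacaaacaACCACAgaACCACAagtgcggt
Runx3 distal promoter, chr4:135120503-135120532, plus strand: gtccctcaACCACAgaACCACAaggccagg
The Runx1 and Runx2 windows shared an unbroken run of 22 bases, and the Runx3 window shared 18 with each of them. The pair began at base 29 from the annotated start of Runx1, at base 24 from that of Runx2 and at 134 bases before the annotated start of Runx3. A pair with this spacing, on either strand, occurred in 7 of all windows, or 0.0213%, and the other 4 belonged to Gm12236, Gm15462, Gm16225 and Olfr24. The second windows of Runx1 and Runx3, which lie at the downstream start sites, and the windows of Cbfb, Cbfa2t2 and Cbfa2t3 held 0 motifs. A match describes the letters of the window and does not show that a RUNX protein was bound there.

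Whether the Runx1 probe sets differed by unequal amounts was read within arrays. Each was set against the brightest Runx1 probe set of the same array, which removes whatever the 2 share in that array. Together with the ETO genes there were 7 such contrasts, 5 of them in Runx1. The log2 ratio of 1452531_at to the brightest was -2.29, -3.22 and -3.46 in the Runx1-KO-labelled arrays, against -4.20, -3.90 and -3.59 in Control. The groups did not overlap, and the ratio was higher by 0.91 in the Runx1-KO-labelled arrays (exact permutation p = 0.1, the smallest possible, and 0.35 adjusted over the 7 contrasts). Without Runx1-KO 1 the difference was 0.56, and it was 0.40 without both arrays numbered 1.

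The ratio of 1422865_at to the brightest was -0.41, -0.48 and -0.41 in the Runx1-KO-labelled arrays and -0.60, -0.53 and -0.59 in Control, a difference of 0.14, again without overlap (exact permutation p = 0.1, adjusted 0.35). Probe sets 1440878_at and 1427650_a_at gave differences of 0.30 and 0.27 with overlapping groups. The difference of 1440878_at was 0.46 without Control 1 and 0.06 without Control 3, and that of 1427650_a_at was 0.12 without Control 2. For 1452530_a_at the groups shared nearly the same mean ratio, -3.42 in both. No contrast could pass 0.05 in this design.

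**Figure D2:**
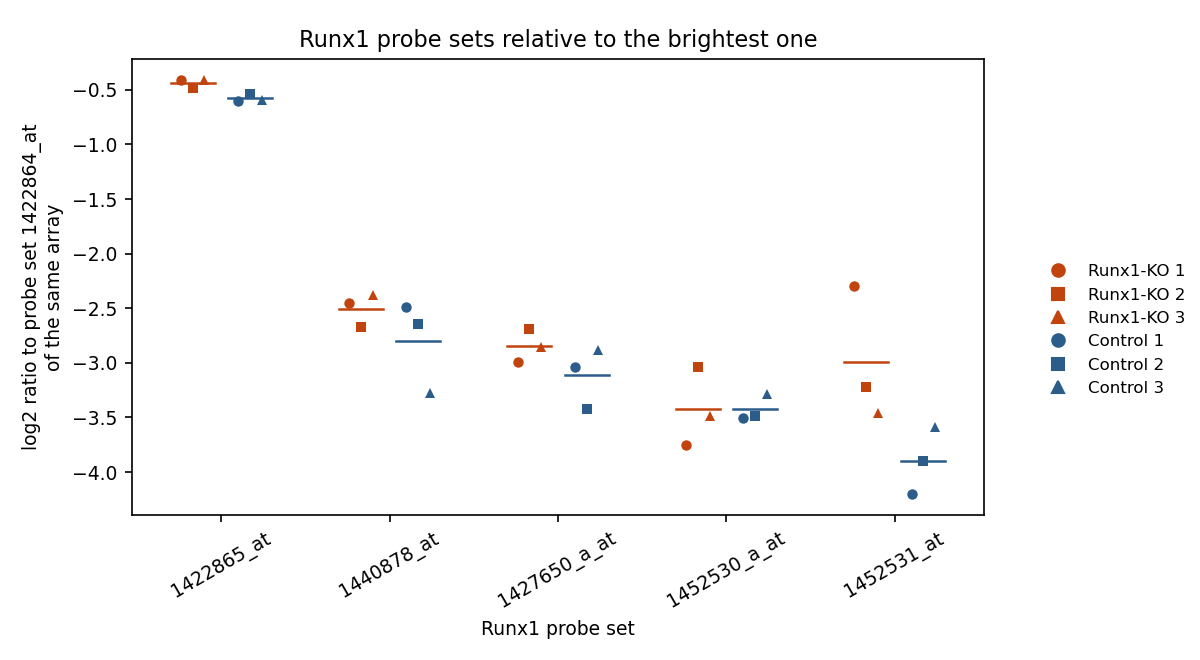
Log2 ratio of 5 Runx1 probe sets to probe set 1422864_at of the same array, for the 3 Runx1-KO-labelled arrays and the 3 Control arrays, with lines at the group means. The groups are apart for 1422865_at and 1452531_at, and Runx1-KO 1 stands highest on 1452531_at at -2.29.

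Cbfb, the binding partner of all RUNX proteins, lay slightly lower in the Runx1-KO-labelled arrays, with little spread, and did not pass the test. Its 1 probe set, 1460716_a_at, stood at 963, 1021 and 1031 in the Runx1-KO-labelled arrays, against 1368, 1279 and 1269.96 in Control. The groups did not overlap, which was so in the lower direction for 10.6% of all probe sets and for 15.9% of those above background on all 6 arrays. The log2 difference was -0.38 ± 0.19 (SE, n = 3 per group), 1.30-fold lower, with an interval of -0.83 to 0.07 and a limma adjusted p of 0.503. The exact two-sided permutation test gave p = 0.1. The SD of the log2 values was 0.05 in the Runx1-KO-labelled arrays and 0.06 in Control. The difference stayed between -0.40 and -0.31 over all alternatives tried, with adjusted p values of 0.168 to 0.708.

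Runx3, which silences Cd4 in cytotoxic T cells and is also expressed in myeloid cells, overlapped between the groups on both of its probe sets. Probe set 1440275_at stood at 586, 1012 and 681 in the Runx1-KO-labelled arrays, against 480.2, 677 and 621 in Control. The difference of 0.33 ± 0.29 had an interval of -0.35 to 1.02 and an adjusted p of 0.698, and it rested on Runx1-KO 2, without which it was 0.11. It was 0.19 without Control 1 and 0.50 without Runx1-KO 1. The second probe set, 1421467_at, stood at 23.6, 14.7 and 32.2 in the Runx1-KO-labelled arrays, against 9.55, 15.9 and 13.6 in Control, and was above background on 2 and 1 of 3 arrays. With dim arrays raised to their limits it was at least 1.23-fold higher in the Runx1-KO-labelled arrays (fitted difference 0.81 ± 0.36, adjusted p = 0.463). The fitted difference was 0.43 with an offset of 16. Markers of T and NK cells, where RUNX3 is known to act, summed to 114 to 134 in the Runx1-KO-labelled arrays and 118 to 202 in Control. Although these sums overlapped, 5 of the 9 markers were lower without overlap, as were 11.7% of all genes, and the median difference was -0.81. Those 5, Cd3e, Cd3g, Cd5, Gzma and Ncr1, were not above background on any Runx1-KO-labelled array, and Ncr1 was above it on no array. Nkg7, a granule protein gene of cytotoxic cells named after its values were seen, lay the other way at 35.7, 57.6 and 58.3 in the Runx1-KO-labelled arrays, against 19.1, 18.6 and 4.11 in Control. Over the markers above background on at least 3 arrays, Nkg7 and Cd8a, the median was 1.23, so its sign depended on the dim markers.

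The ETO genes overlapped between the groups on each of their 4 probe sets that were above background on all arrays. Cbfa2t3, also called Eto2, encodes the family member known from erythroid and megakaryocyte progenitors, where it works with TAL1 and GATA1. On its brightest probe set, 1438705_at, it stood at 265, 485 and 279.7 in the Runx1-KO-labelled arrays, against 210.5, 458 and 343 in Control. The arrays numbered 2 were the highest of both groups, and the difference was 0.04 ± 0.39, with an interval of -0.89 to 0.97 and an adjusted p of 0.980. The sign of this difference turned under 4 alternatives, to -0.26 without Control 1 for example.

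The second Cbfa2t3 probe set, 1418582_at, was likewise highest in the arrays numbered 2. It stood at 97.5, 202 and 93.3 in the Runx1-KO-labelled arrays, against 113, 209 and 142 in Control, a difference of -0.29 ± 0.40 (adjusted p = 0.819). Single arrays moved this difference from -0.65, without Runx1-KO 2, to -0.05, without Control 2. It was -0.49 without Control 1, -0.12 without Runx1-KO 1 and -0.09 without Runx1-KO 3. Its ratio to the brightest probe set was lower by 0.33 on the log2 scale in the Runx1-KO-labelled arrays, with overlapping groups (exact permutation p = 0.2, adjusted 0.35). The 2 dimmer probe sets, 1440963_at and 1440964_s_at, ranged from 17.2 to 25.0 in the Runx1-KO-labelled arrays and from 9.02 to 45.3 in Control. Erythroid markers were highest in Control 1. That array was the lowest of the 6 on 3 of the 4 Cbfa2t3 probe sets, and on 1418582_at it was the lowest Control array. On the 2 dimmer probe sets, however, Control 1 was under its background limit of 17.0, at 9.02 and 9.71, so its rank there carries little weight.

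Cbfa2t2, also called Mtgr1, is known for its role in the intestine and in germ cell pluripotency. Probe set 1434757_at stood at 270.5, 105 and 200.1 in the Runx1-KO-labelled arrays, against 166, 175 and 129 in Control. Both the highest and the lowest of the 6 values were in Runx1-KO-labelled arrays, and the difference was 0.20 ± 0.38 (interval -0.72 to 1.12, adjusted p = 0.877), or -0.10 without Runx1-KO 1. Probe set 1456416_at stood at 81.9, 58.3 and 70.9 in the Runx1-KO-labelled arrays, against 54.5, 70.0 and 80.6 in Control, a difference of 0.05 ± 0.25 (interval -0.56 to 0.65, adjusted p = 0.964). The third probe set, 1441615_at, was above background in Control 1 alone. Runx1t1 was not above background on any array with any of its 6 probe sets. These ranged from 1.23 to 18.3 in the Runx1-KO-labelled arrays and from 1 to 14.8 in Control, so no fold is given.

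**Figure D3:**
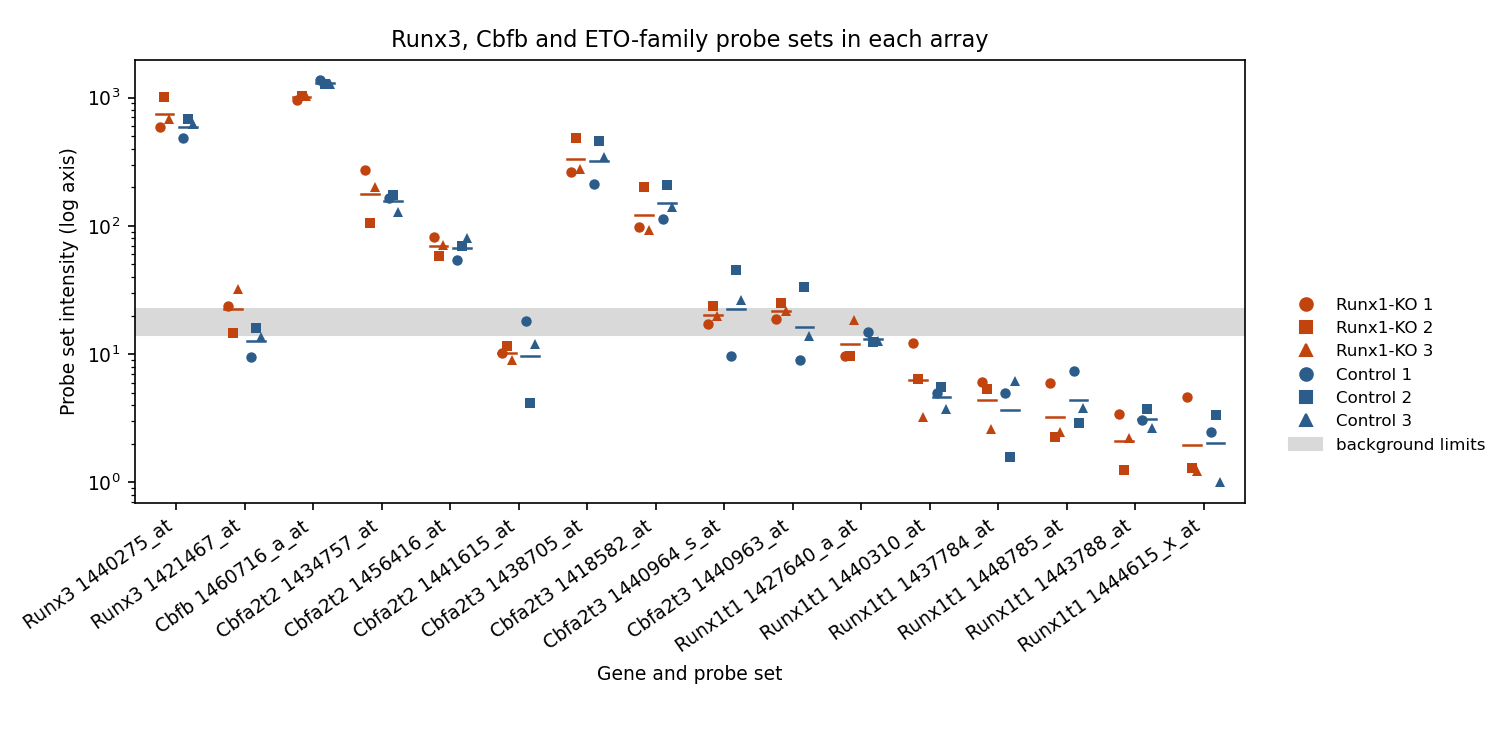
Intensity (log axis) of the probe sets of Runx3, Cbfb, Cbfa2t2, Cbfa2t3 and Runx1t1 in each Runx1-KO-labelled array and each Control array, with geometric means as lines and the background limits as a grey band. Cbfb separates the groups with little spread, Runx3 and the ETO genes overlap, and all 6 Runx1t1 probe sets stay below their arrays' limits.

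Over the 22 member probe sets, 12 were above background on all 6 arrays, 4 on some and 6 on none. The intervals of the 2 brighter Cbfa2t2 and the 2 brighter Cbfa2t3 probe sets all spanned 0. They reached at most 1.12 upward and -1.24 downward on the log2 scale, and the narrowest, of Cbfa2t2 1456416_at, ran from -0.56 to 0.65. For each probe set, changes within its own unadjusted interval could not be told from the spread between leukemias. Of the 16 probe sets above background somewhere, the 4 highest differences were of Runx1. The fifth was the dim Runx3 probe set 1421467_at at 0.81, above the 0.76 of 2 Runx1 probe sets. The unadjusted intervals of 5 of the 6 Runx1 probe sets lay above 0.

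**Figure D4:**
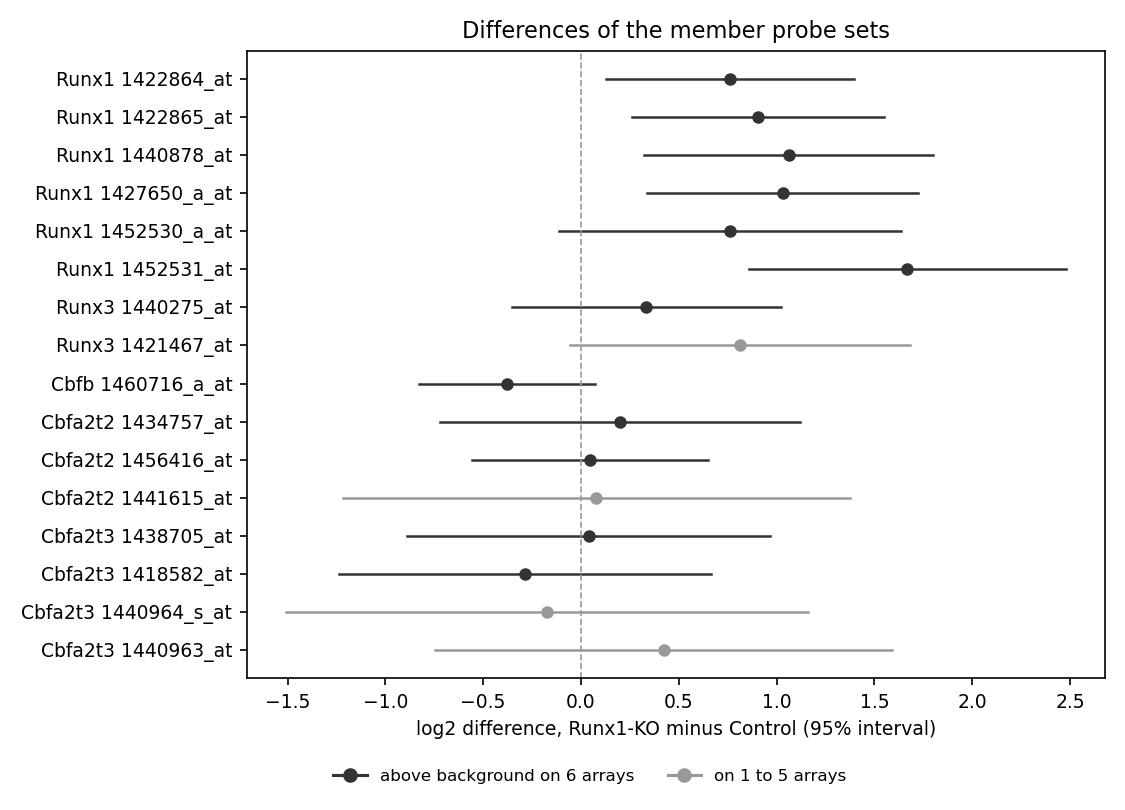
Log2 difference (Runx1-KO minus Control, dots) with its 95% limma interval (lines) for the 16 member probe sets above background on at least 1 array, black where on all 6 and grey where on 1 to 5. Runx1 runs from 0.76 to 1.67, Cbfb lies at -0.38, and all intervals but those of 5 Runx1 probe sets span 0.

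Genes that work with the RUNX and ETO proteins were then read as lists, each gene by its brightest probe set. Over all 18193 genes the median difference was -0.01, limma called 0.0605%, and the groups did not overlap in the higher direction in 9.17% and in the lower in 11.7%. Transcription factors that bind DNA beside RUNX1, listed together with bridging proteins of their complexes, had 0 of 13 members called and a median of -0.18. The median was 0.06 without Runx1-KO 1, -0.02 without Control 1 and -0.12 to -0.10 without any other single array. Lmo2, a bridging protein of blood stem cell complexes, stood at 1855, 1663 and 2147 in the Runx1-KO-labelled arrays, against 2580.4, 2892 and 2465 in Control. The groups did not overlap (-0.49 ± 0.21, adjusted p = 0.448). Ets1, which binds DNA cooperatively with RUNX1, stood at 112, 58.1 and 45.5 in the Runx1-KO-labelled arrays, against 221, 308 and 68.2 in Control, with overlap (-1.32 ± 0.63, adjusted p = 0.486). Gata1 and Tal1, erythroid and megakaryocyte regulators named after their values were seen, were above background in Control 1 alone, at 149 and 87.4, the array with high erythroid markers.

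Coactivators and corepressors had 0 of 20 members called and a median of -0.06, or 0.01 without Runx1-KO 1 or Control 2 and -0.09 without Runx1-KO 2. In 5 of the 20 every Runx1-KO-labelled array lay below every Control array, as in 11.7% of all genes. In 1 every one lay above, as in 9.17% of all genes. The 1 was Prmt6, an arginine methyltransferase that acts as a RUNX1 corepressor, at 233, 239 and 233 in the Runx1-KO-labelled arrays, against 96.6, 114 and 155 in Control (0.97 ± 0.24, limma adjusted p = 0.270). Prmt1, a methyltransferase that modifies RUNX1 and aids its activation of targets, was among the 5, at 287, 336 and 375 in the Runx1-KO-labelled arrays, against 424, 487 and 480.3 in Control (-0.48 ± 0.21, adjusted p = 0.455). The other 4 of the 5, named after their values were seen, were the acetyltransferase gene Kat6a (-0.39 ± 0.22) and 3 genes of the SIN3 deacetylase complex, Sin3a (-0.34 ± 0.20), Hdac1 (-0.42 ± 0.24) and Hdac2 (-0.59 ± 0.26). Their adjusted p values lay between 0.463 and 0.567, so none was called. Sin3b, another SIN3 gene of the list also named after its values were seen, was not lower. It stood at 1713, 1885 and 1613 in the Runx1-KO-labelled arrays, against 1585, 1672 and 1721 in Control, with overlap (0.06 ± 0.19).

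Transcription factors that recruit ETO proteins, listed together with cofactors found with them, had 0 of 13 called and a median of -0.07. The median was -0.22 without Runx1-KO 3, -0.10 without Control 2 and -0.04 without Runx1-KO 1. Tcf3, an E protein that ETO proteins bind and repress, stood at 29.6, 33.3 and 47.7 in the Runx1-KO-labelled arrays, against 67.3, 64.5 and 72.4 in Control, without overlap (-0.91 ± 0.25, adjusted p = 0.303). Bcl6, a repressor of germinal centre B cells, stood at 203, 289.98 and 286 in the Runx1-KO-labelled arrays, against 184, 79.8 and 136 in Control, without overlap (1.02 ± 0.36, adjusted p = 0.379). Enzymes known to modify RUNX proteins had 0 of 16 called and a median of -0.11, with Prmt6 as given above. The median was -0.06 without Control 1, -0.18 without Runx1-KO 2 and -0.19 without Runx1-KO 3 or Control 3. Cdk1, the mitotic kinase, stood at 286, 382 and 551 in the Runx1-KO-labelled arrays and at 742, 697 and 600.2 in Control (-0.79 ± 0.29, adjusted p = 0.401).

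Genes known to be activated by RUNX1 lay on both sides of 0. Of 22 measured, 12 differences were above 0 and 10 below it, 0 were called, and the median was 0.17. The median was 0.35 without Runx1-KO 1, 0.12 without Control 3, 0.27 over genes above background on at least 3 arrays and 0.10 with an offset of 16. The groups did not overlap in 2 of the 22 upward, Rag1 and Ebf1, and in 2 downward, Csf1r and Bcl2, where 9.17% and 11.7% of all genes did not. The 2 upward were dim, and Rag1 was not above background on any array, whereas the 2 downward were above it on all 6. Csf1r, which encodes the M-CSF receptor, stood at 844, 978 and 915 in the Runx1-KO-labelled arrays, against 1982, 1360 and 1723 in Control, with no overlap (-0.87 ± 0.23, limma adjusted p = 0.284), and it is itself a monocyte marker of the list whose summed level was lower. Bcl2, the survival gene, stood at 649, 255 and 316 in the Runx1-KO-labelled arrays, against 841, 868 and 1192 in Control, without overlap (-1.35 ± 0.39, adjusted p = 0.320). Promoter windows were found for 18 of the 25 listed genes, 21 windows in all, and 3 of them, or 14.3%, held TGTGGT or ACCACA, near the 16.8% of all windows. They belonged to Ebf1, Il3 and Rag1, and 1 site of each is printed 5' to 3' with the motif in capitals. The Rag1 window held 2 copies, of which the one farther from the start is shown.
Il3, chr11:54267390-54267419, minus strand: gatgaataagttTGTGGTttgctatggagg
Rag1, chr2:101649596-101649625, minus strand: gctatcatcatcTGTGGTtagccgtctgtg
Ebf1, chr11:44618076-44618105, plus strand: aaaaaaaaaatcTGTGGTtggcgttttttt
Il3, a growth factor of early blood cells, and Rag1, the recombinase of lymphocytes, were not above background on any array. Ebf1, a B cell factor, stood at 29.2, 40.9 and 20.9 in the Runx1-KO-labelled arrays, against 19.953, 19.969 and 18.1 in Control, where 2 of 3 arrays were above background. With the dim array raised to its limit it was at least 1.41-fold higher (fitted difference 0.60 ± 0.29, adjusted p = 0.494).

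Genes repressed by RUNX1 or RUNX3 had 0 of 5 measured members called and a median of 0.28, or -0.05 over genes above background on at least 3 arrays. It was 0.02 without Control 3 and 0.44 without Runx1-KO 2. Zbtb7b, the helper T cell factor that RUNX complexes silence, stood at 59.7, 66.5 and 41.1 in the Runx1-KO-labelled arrays, against 35.2, 34.8 and 32.7 in Control, without overlap (0.68 ± 0.25, adjusted p = 0.398). Hmga2, a chromatin protein of fetal stem cells, lay the other way at 182, 438 and 307 in the Runx1-KO-labelled arrays, against 443, 442 and 502 in Control, with no overlap (-0.67 ± 0.35, adjusted p = 0.517). RUNX2 targets of bone had 0 of 7 called and a median of 0.04, or -0.04 after quantile normalization and -0.03 to 0.17 with 1 array left out. Sp7, Mmp13 and Dmp1 were not above background on any array, and over genes above background on at least 3 arrays the median was 0.25. Ibsp, the bone sialoprotein gene, stood at 59.8, 70.4 and 77.1 in the Runx1-KO-labelled arrays, against 63.6, 39.9 and 60.7 in Control, with overlap (0.36 ± 0.26, adjusted p = 0.646). RUNX3 targets of T and NK cells had 0 of 8 called and a median of -0.67. In 5 of the 8 the Runx1-KO-labelled arrays lay below Control without overlap, as in 11.7% of all genes. In 3 of those 5, Gzmb, Ifng and Ncr1, the signal was not above background on any array. Eomes, named after its values were seen, was above it in Control 1 alone, at 17.5 against a limit of 17.0. Prf1, also named after its values were seen, was above it on all 6 arrays (-0.41 ± 0.21). Over genes above background on at least 3 arrays the list median was -0.28. It was -0.22 with an offset of 16 and -0.44 without Control 1. The T and NK cell markers given above were mostly dim and differed in direction, and their part in this list was not tested.

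**Figure D5:**
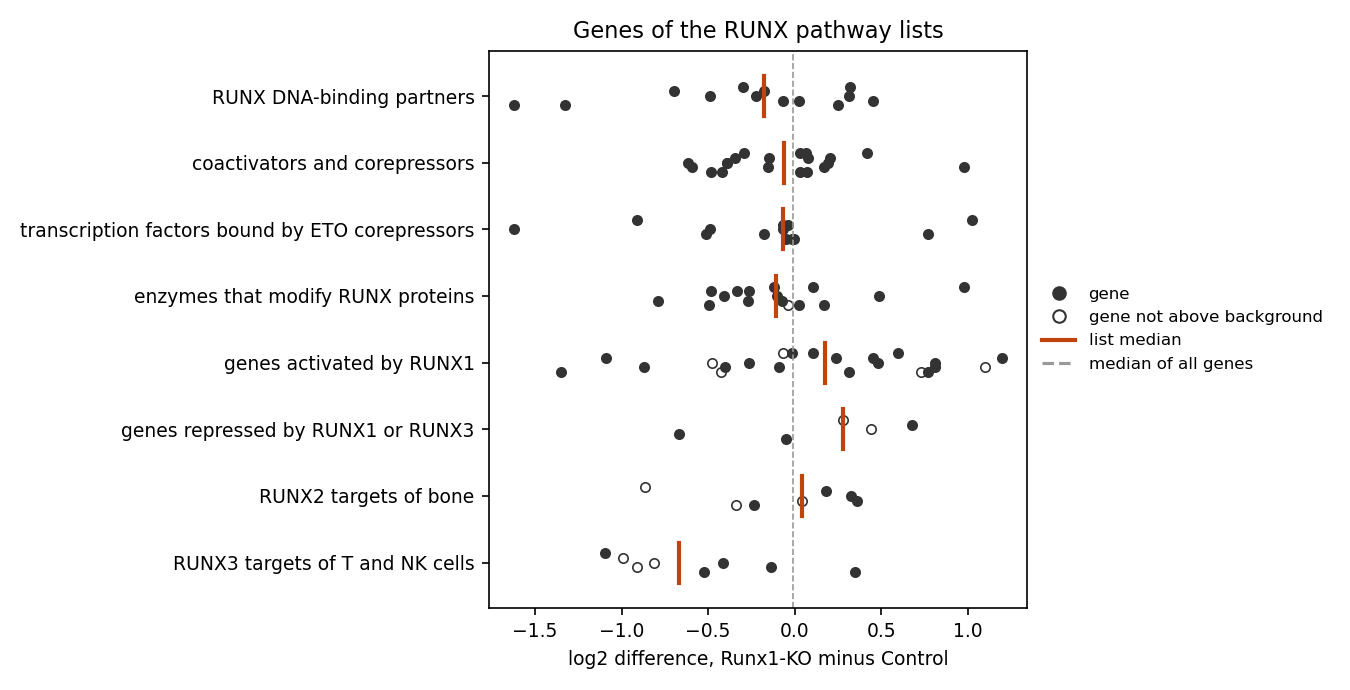
Log2 difference (Runx1-KO minus Control) of each gene in 8 lists of RUNX partners, cofactors and targets, by its brightest probe set, with the list median as a vertical bar, open circles for genes not above background on any array and a dashed line at the median of all genes, -0.01. The list medians run from -0.67 to 0.28 and 0 of the genes shown were called.

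Genes whose pattern over the 6 arrays lay closest to that of a member were found by the root mean square difference of log2 values, each gene centred on its own mean, among 9701 genes above background on all arrays. This describes the arrays and shows nothing of shared control. Closest to Runx1 were the clock repressor gene Cry2 (0.06), the heterochromatin gene Bend3 (0.09) and the membrane-bending gene Fnbp1l (0.09), where the median gene lay at 0.55. Cry2 stood at 241, 314 and 324 in the Runx1-KO-labelled arrays, against 138, 189.9 and 174 in Control. Closest to Runx3 was Spi1 (0.06), which encodes the myeloid factor PU.1, at 274, 450.0 and 322 in the Runx1-KO-labelled arrays, against 239, 297 and 292 in Control. Ufm1 and Prrc1 followed at 0.08 and 0.09, with a median over genes of 0.44. Closest to Cbfb were Ranbp1, a cofactor of nuclear transport, Mettl21a, a protein methyltransferase, and Psmd13, a subunit of the proteasome, all at 0.03 against a median of 0.33. Ranbp1 stood at 802, 851 and 866 in the Runx1-KO-labelled arrays, against 1099, 1037 and 1068 in Control.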

How the data were processed

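Total RNA of 6 leukemias was hybridised to arrays after biotin labelling with a NuGEN kit, per the labels' protocols. Each deposited value is the intensity of a probe set on a linear scale with a floor of 1, and the authors' summarisation, background subtraction and normalization are not given in the sources used here. The labels call the arrays biological replicates of independent leukemias. Of 45101 probe sets, 34958 had 1 symbol in the platform annotation, 932 several and 9211 none, and an Entrez match for 34754 of them changed 0 symbols. The 64 control probe sets were left out. Values were taken to log2 and fitted in R 4.3.3 with limma 3.58.1 by lmFit, then eBayes, two-sided and without covariate or filter, at an adjusted p of 0.05. For a probe set dim on some arrays of the lower group, those arrays were raised to their background limit, which gives a lower bound of the fold.

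Members and lists were chosen with earlier results of these data known. The 17 lists were 8 of RUNX and ETO partners, cofactors and targets and 9 of cell type and sex markers. Named genes were all members, of each of the 8 lists of partners, cofactors and targets the members called or else the 2 of lowest p, and the 3 nearest patterns of Runx1, Runx3 and Cbfb. From the 9 marker lists some genes are named without that rule, so their called or lowest-p genes are not all given. Others are markers, hold the motif in a promoter window, are given only as not above background, or are said to be named after their values were seen. Alternatives were quantile normalization, median centring, a filter on dim probe sets, 1 probe set or the mean per gene, weights per array, a mean-variance trend fitted robustly, an offset of 16, an adjusted p of 0.1, the replicate number as a block and leaving out each array. Leaving out both arrays numbered 1 and the background limit were chosen after the data were seen. Replicate numbers did not pair the samples, and the precision was limited by the 6 arrays.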

Additional observations from a re-analysis of the deposited data

How the results depend on the processing

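Under 17 alternatives the 16 member probe sets above background somewhere gave 243 values, of which 229 kept their direction, 14 turned and 0 were called, with a lowest adjusted p of 0.0688 for Runx1 1452531_at under a variance trend with robust fitting. Runx1 and Cbfb kept their direction throughout, Runx1 1422864_at between 0.61 and 0.93, and the mean of the 6 Runx1 probe sets was 1.03. Calls over all probe sets, 11 higher and 20 lower, became 27 and 39 over probe sets above background on at least 3 arrays, 6 and 10 with 1 probe set per gene, 9 and 10 with their mean, 82 and 121 with the variance trend, 19 and 27 with array weights, 29 and 62 with the offset, 24 and 27 at an adjusted p of 0.1, and 1 to 3 higher and 3 to 6 lower with 1 array left out. With the replicate block limma called 0 and 0 (4464 at an unadjusted p under 0.05), where same-numbered arrays deviated with correlations of 0.01, -0.08 and 0.03, so the numbers were not taken as pairs. Without both arrays numbered 1, limma called 0 and 0 (5065 unadjusted). The cause of these changes was not tested.

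The values that turned were near 0 in the full fit. Cbfa2t3 1438705_at was -0.11 with array weights, -0.10 without both arrays numbered 1 and -0.26 to 0.30 with 1 array left out, and 1440964_s_at was -0.78 to 0.33 with 1 left out. Cbfa2t2 1434757_at was -0.050 without both arrays numbered 1 and -0.10 to 0.58 with 1 left out, 1456416_at -0.22 and -0.11 to 0.18, and 1441615_at -0.027 with array weights, -0.031 with the offset and -0.53 to 0.54 with 1 left out. The contrast of Runx1 1452530_a_at was 0.00049 with quantile normalization, 0.12 without both arrays numbered 1 and -0.19 to 0.16 with 1 left out, and that of Cbfa2t2 1456416_at was -0.41 to 0.11. Of 187 list medians under alternatives, 30 moved by more than the SD between arrays and 12 crossed 0. In the Runx1t1 probe sets and other dim genes, signal at the background limits the reading.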
